A study of Caenorhabditis elegans with 2 samples.

Results

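The 5 genes described here, tts-1, icl-1, acbp-6, ftt-2 and cox-5A, have known links to starvation, fat use or mitochondrial respiration, and each has a strong peak in a chromatin immunoprecipitation (ChIP-seq) experiment on the glial basic helix-loop-helix factor HLH-17. They are 5 of 46890 genes annotated on the 6 chromosomes of Caenorhabditis elegans. The genes were chosen by the deposited signal of the pooled peaks, as genes with a peak of the thresholded list at or near them, which 1.25% of all genes have. The signal values and ranks below are therefore a description, and no test was made on them. A peak was counted for a gene when its summit lay in the gene body or within 5000 bp of the gene start on either side. The windows of the 5 genes held 24 of the 30000 pooled peaks. Of these, 7 belonged to the thresholded list, which is the top 0.383% of the pooled list by signal and ends just before rank 116.

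The samples were whole larvae of the first stage (L1), of mixed sex, 6 h of age and starved after bleaching. They belonged to strain OP643, in which the transgene wgIs643 carries hlh-17::TY1::EGFP::3xFLAG together with unc-119(+), in an unc-119 (tm4063) background. The 2 biological replicates form 1 group, both carry the transgene, and an antibody against the green fluorescent tag was used, so there is no comparison between conditions. Each replicate has a list of 30000 relaxed peaks, and a pooled list of 30000 was called on both together. The pooled and thresholded lists contain the reads of both replicates, so recovery in a replicate is not independent evidence. Read numbers are not in these lists and depth is unknown. All larvae were starved and fed larvae were not analysed, and RNA was not measured, so neither a response to starvation nor expression of these genes can be read from the data.

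A larva that hatches without food stops developing and lives on its stored fat. Breakdown of fatty acids yields acetyl units, which the glyoxylate cycle can turn into precursors of sugar. Acyl-CoA-binding proteins carry activated fatty acids, and cytochrome c oxidase passes electrons from food or fat to oxygen at the end of the respiratory chain. Insulin signalling reports food through the transcription factor DAF-16, a FOXO protein that 14-3-3 proteins hold in the cytoplasm. HLH-17 belongs to the Olig family and was studied mainly in glia of the head. Its protein family binds the E-box, CANNTG.

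The sequence around each gene's strongest summit is shown because position and sequence are what these peaks add to the ranks. Each run is the forward strand of WBcel235, the assembly that ce11 denotes, from 100 bp before to 100 bp after the summit. Capitals mark each E-box, CANNTG. The windows are chrX:1503818-1504018 for tts-1, chrV:727684-727884 for icl-1, chrII:11974752-11974952 for acbp-6, chrX:11606090-11606290 for ftt-2 and chrIII:12905083-12905283 for cox-5A.
tts-1: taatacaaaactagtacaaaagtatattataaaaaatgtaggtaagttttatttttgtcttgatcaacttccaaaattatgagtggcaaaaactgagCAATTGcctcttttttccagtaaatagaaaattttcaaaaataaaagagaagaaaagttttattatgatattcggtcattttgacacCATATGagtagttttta
icl-1: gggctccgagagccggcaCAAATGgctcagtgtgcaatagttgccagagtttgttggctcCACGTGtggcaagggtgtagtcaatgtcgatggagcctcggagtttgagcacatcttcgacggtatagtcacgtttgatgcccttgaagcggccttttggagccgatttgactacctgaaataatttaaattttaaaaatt
acbp-6: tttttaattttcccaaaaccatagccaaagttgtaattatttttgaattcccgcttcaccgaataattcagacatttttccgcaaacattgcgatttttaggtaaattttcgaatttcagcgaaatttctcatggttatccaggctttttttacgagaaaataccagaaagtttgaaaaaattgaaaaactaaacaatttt
ftt-2: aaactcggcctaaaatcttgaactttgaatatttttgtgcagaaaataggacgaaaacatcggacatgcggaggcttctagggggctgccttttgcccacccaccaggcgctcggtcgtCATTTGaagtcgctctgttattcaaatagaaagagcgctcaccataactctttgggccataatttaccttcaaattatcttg
cox-5A: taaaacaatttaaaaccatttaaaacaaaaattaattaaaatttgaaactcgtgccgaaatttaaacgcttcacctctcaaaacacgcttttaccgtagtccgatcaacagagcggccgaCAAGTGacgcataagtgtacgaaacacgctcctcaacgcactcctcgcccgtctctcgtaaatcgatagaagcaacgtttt

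The gene tts-1 encodes a non-coding RNA that is abundant in dauer larvae and in long-lived insulin receptor mutants. It is 711 bp long, on the reverse strand of chrX:1504131-1504841. Its strongest peak (chrX:1503726-1504109) was not at the start but 923 bp downstream of it, 213 bp past the end of the gene. The pooled signal of this peak was 257, at rank 14. It ranked 11 in replicate 1 with a signal of 112, and 20 in replicate 2 with a signal of 149. Both replicates had a summit at exactly the same base, and among the 7 peaks this was the highest in the pooled list and in replicate 1. The nearest protein-coding gene, F09E10.1, ends 640 bp away on the other side, so the summit lay between the 3′ ends of both genes. Starts of the non-coding F09E10.14 and F09E10.10 lay 1080 and 1272 bp away, and that of F09E10.1 lay 1128 bp away.

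A second thresholded peak lay inside tts-1 (chrX:1504530-1504913), with the summit in its exon, 119 bp from the start. Its pooled signal of 166 put it at rank 64, and in replicate 2 it ranked 45 with a signal of 126. In replicate 1 the nearest summit was 113 bp away and ranked only 4334, with a signal of 36.2 against a median of 27.4 in that list. The larger of its replicate ranks was 96.3 times the smaller, and of the 114 thresholded peaks with a summit within 200 bp in both replicates, only 4.39% had a larger ratio. The peak past the end of tts-1 was thus the one that both replicates held near the top. The start of F09E10.14 lay 276 bp from the second summit and that of F09E10.10 468 bp, with F09E10.15 and F09E10.1 at 1580 and 1932 bp. The remaining pooled peak of the window, at rank 20844, lay 4158 bp downstream of the start in an exon of F09E10.7.

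The name of tts-1 stands for transcribed telomere-like sequence. The window of the second summit (chrX:1504622-1504822, forward strand) is shown because it holds separate copies of TTAGGC. Capitals mark TTAGGC, the unit of the worm's telomere repeat.
tts-1, second summit: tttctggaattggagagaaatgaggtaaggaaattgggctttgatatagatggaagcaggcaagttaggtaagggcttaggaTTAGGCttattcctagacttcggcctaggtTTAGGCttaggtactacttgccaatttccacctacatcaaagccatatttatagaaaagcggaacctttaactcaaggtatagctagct
TTAGGC occurred 2 times in this window, on either side of the summit, and these were also the 2 copies in the whole gene on either strand. The copies began 18 bp before and 12 bp after the summit. Of all thresholded windows this was the 1 with more than 1 copy (0.87%), against 1.14% of the other 29885 pooled windows. At least 1 copy was in 2 of the 7 windows, the other being that of ftt-2, in 6.09% of thresholded windows and in 5.34% of the other pooled windows. A tandem pair of units was in 0 of the 7 windows.

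The window past the end of tts-1 was rich in A and T. Its GC content of 24.9% was the lowest of all thresholded windows, whose median was 41.8%. It was also the 1 of the 7 windows with exact words of 30 bp that occur elsewhere in the genome, 35 of 172 (20.3%). Among all thresholded windows, 20 (17.4%) had any. By BLAST, 9 other places in the genome matched at least 50 bp of it at 90% identity or more, against 0 for each of the other 6 windows. Without that cut, it had 1282 other matches, and the window of the second tts-1 summit had 1336, the most of the 7. The best match of the second window was 88.0% identical over 50 bp. The windows of the other genes had from 0 to 11 matches. The part of repeated sequence in the signal of the tts-1 peaks was not tested.

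The enzyme encoded by icl-1 joins isocitrate lyase and malate synthase, the 2 steps particular to the glyoxylate cycle, in a single protein. The gene spans 3673 bp on the reverse strand, at chrV:724332-728004. Its thresholded peak (chrV:727592-727975) had its summit 220 bp downstream of the start, in a coding exon of both annotated transcripts. The pooled signal was 160, at rank 69. It ranked 495 in replicate 1 with a signal of 49.4 and 70 in replicate 2 with a signal of 110, and the summits of the replicates lay 27 and 5 bp away. The position was thus shared, but by rank the peak was strong in replicate 2 and moderate in replicate 1. Starts of the non-coding C05E4.16 and of srh-2, a chemoreceptor gene, lay 447 and 517 bp from the summit, on the opposite strand.

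Peaks at icl-1 were not limited to its start. A pooled peak of rank 202, with a signal of 135, lay 922 bp upstream of the start, in an intron of srh-2. It ranked 507 in replicate 1 and 463 in replicate 2, with summits 15 bp and 0 bp away, and the start of srh-2, 625 bp from it, was nearer than that of icl-1. A pooled peak of rank 213, with a signal of 134, lay in a coding exon 2362 bp downstream of the start. It ranked 147 in replicate 2 but 3386 in replicate 1, with summits 2 and 12 bp away. Of the 7 pooled peaks of the window, 5 had summits of both replicates within 100 bp. With 3 of the first 1000 pooled peaks in its window, icl-1 belonged to 0.0661% of all genes, 31 of 46890. The thresholded peak for which icl-1 was chosen is among these 3, so the share is a description only. The remaining 4 pooled peaks of the window ranked from 6984 to 28529.

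The icl-1 window near the start held the E-box forms CAAATG and CACGTG, beginning 82 and 40 bp before the summit. CACGTG is the form bound by HLH-30, the factor of lysosome and fasting genes, and by other helix-loop-helix proteins. This was the 1 of the 7 windows with CACGTG, which was in 7.83% of thresholded windows and 4.63% of the other pooled windows. The closest match of this window elsewhere, 84.3% identical over 178 bp, lay in a pseudogene on chrIV (WBGene00007461). No pooled summit lay within 200 bp of that match.

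The product of acbp-6 belongs to the acyl-CoA-binding family. The gene is 1420 bp long, on the reverse strand of chrII:11972313-11973732. Its stronger peak (chrII:11974660-11975043) lay 1120 bp upstream of the start, in intergenic sequence. The neighbour on that side, Y17G7B.21, is on the same strand and ends 331 bp from the summit, so the peak lay nearer to the 3′ end of the neighbour than to the start of acbp-6. The pooled signal was 225, at rank 24. It ranked 149 in replicate 1 with a signal of 57.5 and 14 in replicate 2 with a signal of 162, and the summits lay 9 and 2 bp away. Its window of sequence held 0 E-boxes and had a GC content of 29.4%.

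Another thresholded peak of the acbp-6 window (chrII:11977236-11977619) had its summit 3696 bp upstream of the gene. It belonged by position to Y17G7B.21, lying 233 bp downstream of that start in a coding exon of both transcripts. At pooled rank 32, with a signal of 213, it was the most even of the 7 peaks between replicates. It ranked 38 in replicate 1 with a signal of 77.1, and 37 in replicate 2 with a signal of 135. Both peaks are counted for acbp-6 by the window alone, and only the first has the start of acbp-6 as its nearest gene start. A pooled peak of rank 1474 lay between them, 2439 bp upstream, and inside acbp-6 itself the peaks ranked 18532 and 22301. The gene body of acbp-6 was therefore weak in the pooled list, while the sequence upstream was strong.

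ftt-2 encodes 1 of the pair of 14-3-3 proteins of the worm, which bind phosphorylated DAF-16. The gene is 1712 bp long, on the reverse strand of chrX:11603708-11605419. Its thresholded peak (chrX:11605998-11606381) lay 771 bp upstream of the start, with a pooled signal of 232 at rank 18. It ranked 68 in replicate 1 with a signal of 67.2, and the summit there was 1 bp away. In replicate 2 it ranked 13 with a signal of 162, and the summit was 118 bp closer to ftt-2. Both replicates thus had a peak among their strongest, but not at the same base.

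The pooled summit at ftt-2 also lay in a cluster of short non-coding genes. It was in the exon of F52D10.9, a gene of 149 bp, 87 bp from its start, and the starts of F52D10.7, F52D10.12 and F52D10.11 lay within 594 bp. The start of ftt-2 was the nearest of a protein-coding gene, and the next protein-coding gene on the other side, F52D10.4, began 11280 bp away. Inside ftt-2 a pooled peak of rank 1997 lay 862 bp downstream of the start, in a coding exon of 1 of 2 transcripts. It ranked 799 in replicate 1 and 8368 in replicate 2. Past the gene, the pooled peaks ranked 4582 and 13162. The window of the thresholded summit held 1 E-box, CATTTG, beginning 19 bp after the summit. The summit of replicate 2, at chrX:11606072, lay outside this window, which begins at chrX:11606090. Place and sequence are thus those of the pooled summit.

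The product of cox-5A is a subunit of cytochrome c oxidase. The gene is 1129 bp long, on the forward strand of chrIII:12905491-12906619. Its thresholded peak (chrIII:12904991-12905374) lay 308 bp upstream of the start, with a pooled signal of 157 at rank 75, the lowest of the 7. It ranked 76 in replicate 1 with a signal of 65.8, and 324 in replicate 2 with a signal of 90.8. The summits were 4 bp and 0 bp away, so the position was shared to a few bases while the order of strength was the reverse of that at icl-1. No other gene start lay within 2000 bp, and the next protein-coding gene upstream, unc-71, lay 13445 bp away. Of the 5 genes, cox-5A is therefore the one whose peak has the plainest position at its own start. A pooled peak of rank 470, with a signal of 122, lay 259 bp past the end of cox-5A and ranked 363 in replicate 1 and 2177 in replicate 2. The weaker peaks, of ranks 11149 to 28737, had the neuropeptide gene flp-14 as their nearest start.

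The cox-5A window shared a long run of bases with another strong peak, and that run is shown because it is the longest that any of the 7 windows shared with another thresholded window. It lies at chrIII:12905161-12905181 and, on the opposite strand, at chrIII:3867566-3867586, in the window of the peak of rank 5, 297 bp from the start of the ribosomal protein gene rpl-3.
Shared run of 21 bp: CAAAACACGCTTTTACCGTAG
At cox-5A it ended 2 bp before the summit, and at rpl-3 it began 9 bp after it. These were its only 2 exact copies on the 6 chromosomes, and both lay within 100 bp of a thresholded summit. Among all thresholded windows, 7 pairs shared an exact run of at least this length, and 10 windows (8.7%) took part in them. Between the 7 windows of the 5 genes themselves, the longest shared run was 11 bp, between the stronger peaks of tts-1 and acbp-6. The run was singled out after its values were seen.

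**Figure D1:**
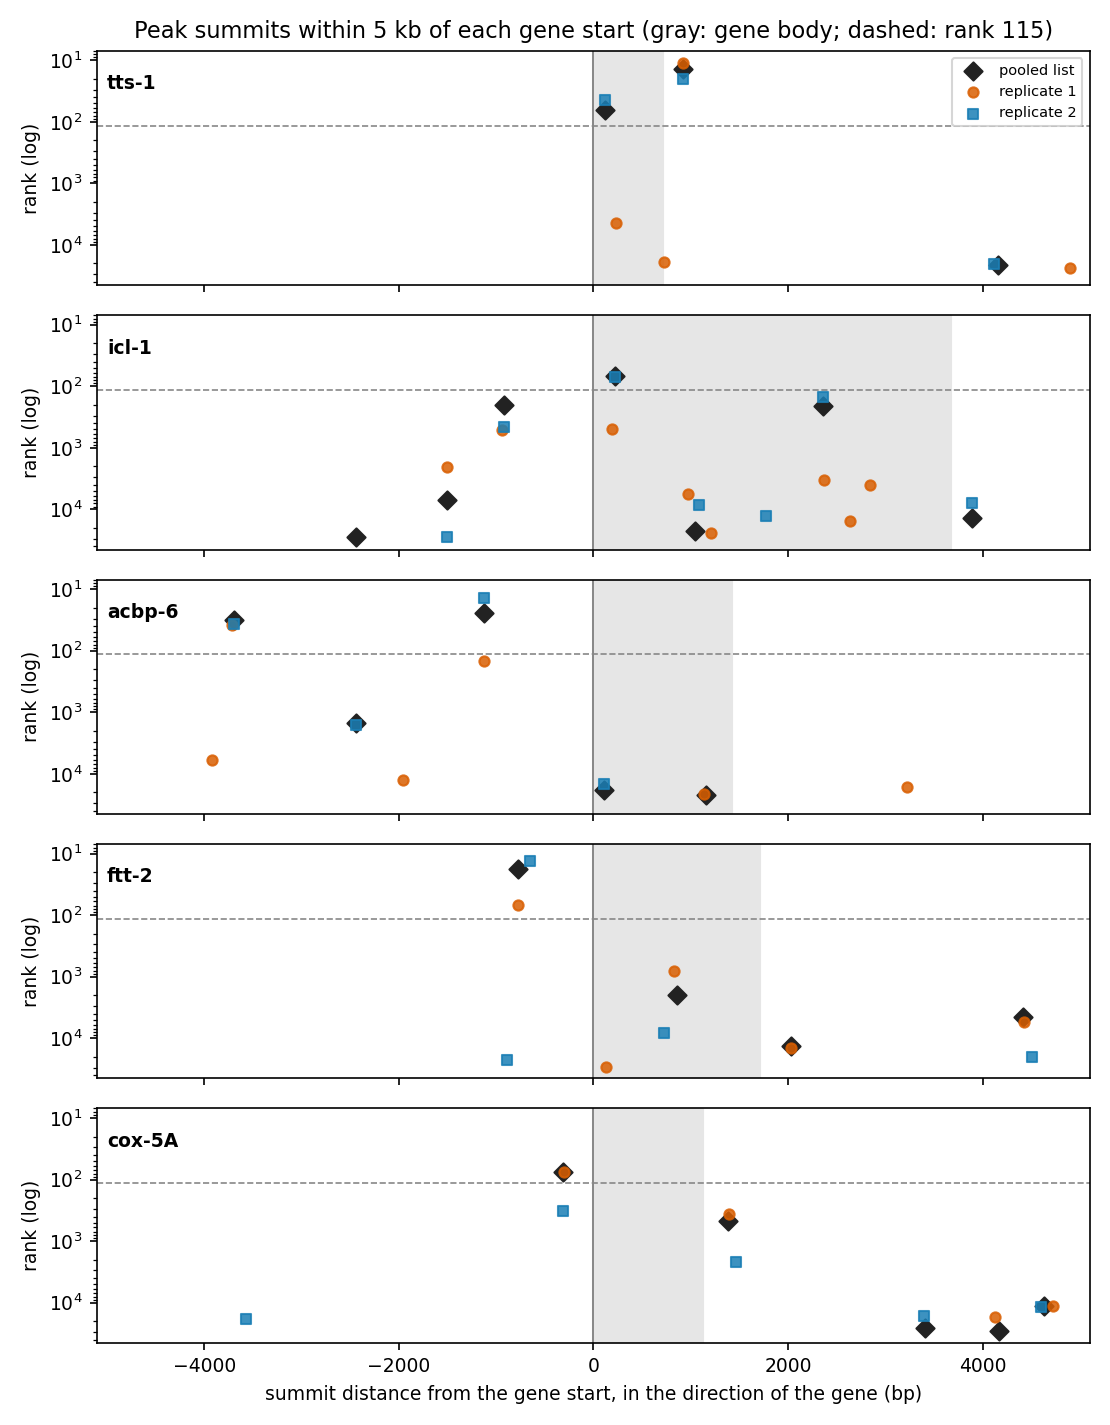
Summits of pooled, replicate 1 and replicate 2 peaks by distance from the gene start in bp (positive in the direction of the gene), against rank within each list on a log axis with strong peaks at the top. Gray marks the gene body and the dashed line the last rank of the thresholded list. The tts-1 panel has its strongest summits at 923 bp, past the gene, while those of ftt-2, cox-5A and acbp-6 lie upstream of the start and that of icl-1 lies just inside the gene.

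The 7 peaks differed in position. By distance, 3 were within 308 bp of the start of their own gene (tts-1 at 119 bp, icl-1 at 220 bp and cox-5A at 308 bp), and the other 4 were from 771 to 3696 bp away. Summits of the first pair lay inside the gene, that of cox-5A before it. In the pooled list the signals ran from 157 to 257. The last thresholded peak had a signal of 145.8, and the first one left out, of rank 116, had 145.6. The icl-1 peaks of ranks 202 and 213 had signals of 135 and 134, below that of the last peak kept.

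Recovery differed more in strength than in position. All 7 peaks had summits of both replicates within 200 bp, and 5 had them within 100 bp, the exceptions being the second peak of tts-1 and that of ftt-2. Of all thresholded peaks, 99.1% and 87% did at these distances. By rank, 5 of the 7 stood higher in replicate 2 and 2 in replicate 1. Of the 114 thresholded peaks found in both, 68 stood higher in replicate 2 and 42 in replicate 1, with equal ranks in the rest. With each replicate's own list ended at the same length as the thresholded list, it held 4 of the 7 peaks in replicate 1 and 6 in replicate 2. The peaks at tts-1 past its end, at ftt-2 and at Y17G7B.21 were in both sets. The ratio of the larger to the smaller replicate rank ran from 1.03 at Y17G7B.21 to 96.3 at the second tts-1 peak, with a median of 2.98 over the 114 peaks.

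**Figure D2:**
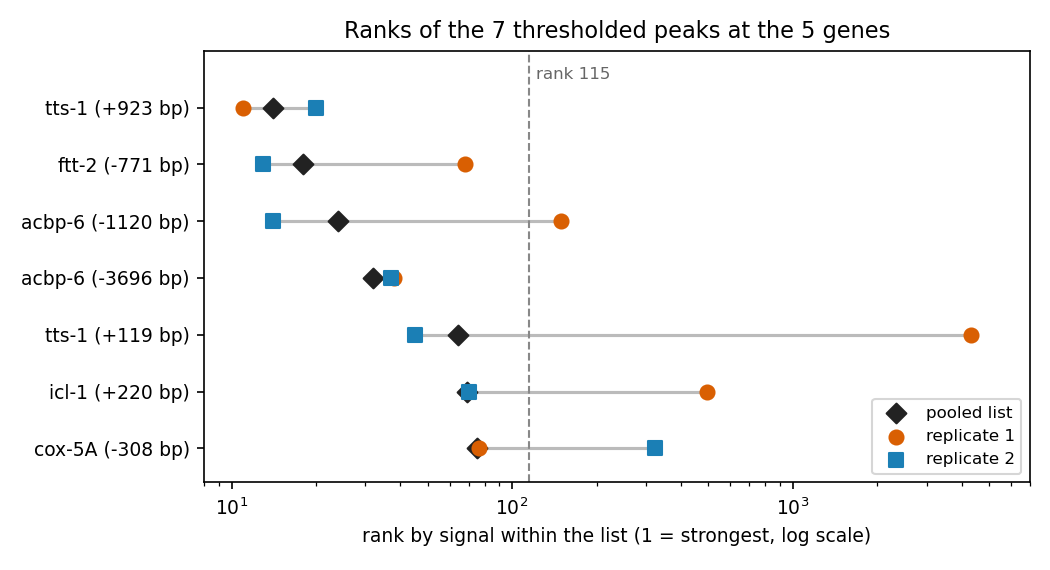
Rank by signal of the 7 thresholded peaks in the pooled list, in replicate 1 and in replicate 2, on a log axis. Each row is a peak, named by gene and by its distance from the gene start, gray lines join its 3 ranks, and the dashed line marks the last rank of the thresholded list. Only the second tts-1 peak has a replicate rank over 1000 (4334 in replicate 1).

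**Figure D3:**
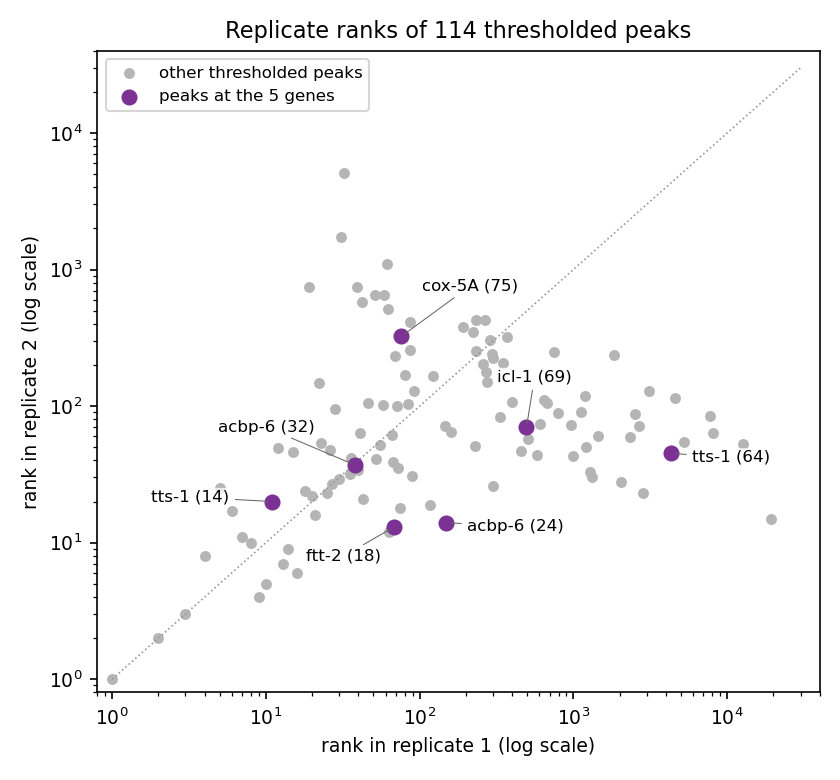
Rank in replicate 1 against rank in replicate 2 (both log axes) for the 114 thresholded peaks with a summit within 200 bp in both replicates, with the 7 peaks at the 5 genes named and their pooled rank in brackets. The dotted line marks equal ranks. The stronger tts-1 peak and the acbp-6 peak of rank 32 lie close to it, and the tts-1 peak of rank 64 lies far to the right.

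By the authors' column for the estimated q, 4 of the 7 peaks were at 0 or above. These were the stronger tts-1 peak (0.48), both acbp-6 peaks (0.35 and 0.19) and the ftt-2 peak (0.22). The values were −0.38 at the second tts-1 peak, −0.46 at icl-1 and −0.48 at cox-5A. Of the 17 weaker pooled peaks in the windows, 12 were at 0 or above. In the whole thresholded list 38 peaks (33.0%) were at 0 or above, against 90.6% of the other pooled peaks. A value of 0 or above thus did not mark the peaks of strong signal. The highest values did include strong peaks. By this column the stronger tts-1 peak ranked 16 and the stronger acbp-6 peak 21 in the pooled list, while the ftt-2 peak ranked 12508. Values below 0 cannot be −log10 of a q of at most 1, and the column is treated as a score of unknown scale.

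A thresholded summit in the window was found for 1.25% of all genes (584 of 46890) and for 1.36% of protein-coding genes (272 of 19973). The 5 genes were chosen for having one, so the shares of genes with 2 or more strong peaks that follow are descriptions only. With 2 thresholded summits in the window, tts-1 and acbp-6 belonged to 22 genes (0.0469%). Of the first 1000 pooled peaks, 2 or more lay in the windows of 0.663% of genes, among them tts-1, icl-1, acbp-6 and cox-5A, but not ftt-2. Pooled peaks of any rank numbered 3 for tts-1, 4 for ftt-2, 5 for acbp-6, 5 for cox-5A and 7 for icl-1, against a median of 3 over all genes, with a 90th percentile of 5 over all genes and of 6 over protein-coding genes. The count at icl-1 was above both of these percentiles, those at acbp-6 and cox-5A equalled the one over all genes, and those at tts-1 and ftt-2 were below both. Of the 17 pooled peaks in these windows outside the thresholded list, 7 had summits of both replicates within 100 bp, against 26.7% of all 29885 such peaks. Within 200 bp it was 8 of the 17, against 36.6%. Among the 7 were the peaks of ranks 202 and 213 at icl-1 and 470 at cox-5A. The difference was not tested.

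Neither the E-box nor the DAF-16 elements were tested for a difference between the 7 windows and other peaks, and their shares are given as counts. An E-box within 100 bp of the summit was present at 5 of the 7, in 57.4% of thresholded windows and in 61.0% of the other pooled windows. The tts-1 window past the gene held CAATTG directly over the summit, from 3 bp before to 2 bp after it. An E-box over the summit was found at 1 of the 7 peaks, at 2 thresholded peaks (1.74%) and at 2.83% of the others. The DAF-16 element GTAAACA and the associated element TGATAAG were in 0 of the 7 windows, in 2.61% and 1.74% of thresholded windows and in 2.19% and 3.36% of the others. All motifs were sought on both strands, and CACGTG is counted also as an E-box. A match is a description of the letters, not a binding site.

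Words that were frequent in the thresholded list were present at some of the genes. CGAGAG was in the windows of icl-1, cox-5A and the Y17G7B.21 peak, in 26.1% of thresholded windows and in 6.38% of the other pooled windows. CCTCTC and GTACAC were both in the cox-5A window, beginning 27 bp before and, as GTGTAC, 34 bp after its summit, and in 0 of the other 6. Their shares were 22.6% and 18.3% of thresholded windows, against 6.83% and 5.57% of the others. These words were picked out from the same peaks in earlier work, so their shares in the thresholded list are not independent of that choice.

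The 5 genes were chosen for a peak, so other genes of the same pathways are set against protein-coding genes as a whole and not against the 5. Of 133 other genes in 7 lists, 4 (3.01%) had a thresholded summit in the window, against 1.36% of protein-coding genes, and the best pooled peak had a median rank of 4423, against 6858 for protein-coding genes. Windows of long genes are longer and can hold more peaks. At rank 1000 or better were 21 of the 133 (15.8%), against 9.74% of protein-coding genes. The difference was not tested, because the lists were chosen with results of these data known, and the shares are not independent of that choice.

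In the glyoxylate and citric acid cycles, 1 of 26 genes besides icl-1 had a thresholded summit in the window, against 1.36% of protein-coding genes. This was idh-1, the cytosolic isocitrate dehydrogenase, with a peak of rank 50 at 3869 bp upstream. The starts of the non-coding F38E11.24, at 210 bp, and of the small heat shock gene hsp-12.3, at 531 bp, were nearer. Next were dlst-1, a subunit of 2-oxoglutarate dehydrogenase, at rank 280 and 1451 bp inside the gene (716 bp from the start of W02F12.4), and idha-1, a mitochondrial isocitrate dehydrogenase subunit, at rank 498 and 556 bp inside the gene. The gluconeogenic genes pck-1 and pck-2, which encode the enzyme that follows the glyoxylate cycle on the way to sugar, had best ranks of 5460 and 3254.

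Relatives of acbp-6 and partners of ftt-2 lacked thresholded summits. As 1.36% of protein-coding genes had one, a count of 0 in lists this short does not set them apart. Of the 7 other acyl-CoA-binding genes, 0 had a thresholded summit, and acbp-1 and maa-1 had no pooled peak in the window. The best were acbp-5 at rank 1594 and ech-4 at rank 1825, both with a nearer start of another gene (set-16 and mix-1). The second 14-3-3 gene, par-5, had a best rank of 4846, at 739 bp downstream of its start. Of 16 genes of the DAF-16 pathway list besides ftt-2, 0 had a thresholded summit, and daf-16 itself had a best rank of 6807. The highest there were dod-3 (rank 309) and smk-1 (rank 485), a cofactor of DAF-16, with summits 2596 and 3622 bp upstream and nearer to srg-57 and F41E6.5.

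Respiration genes other than cox-5A had 1 thresholded summit, beside a share of 1.36% over all protein-coding genes. Of the 6 other cytochrome c oxidase subunits 0 had one, the highest being cox-4 at rank 234, 2740 bp from its start, past its end and nearer to sac-2, and cox-6B at rank 1300, far inside the gene and nearer to Y71H2AM.12. Among 26 genes of other respiratory complexes and ATP synthase, the cytochrome c gene cyc-2.1 had a peak of rank 31 at 1052 bp upstream, with the start of Y17G9B.5 only 176 bp away. The next were atp-2, the beta subunit of ATP synthase, at rank 405 and 715 bp inside the gene, and nuo-1, a complex I subunit, at rank 945, with the start of nbs-1 nearer, at 154 bp.

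Fat use and starvation regulation made up the last lists. As 1.36% of protein-coding genes had a thresholded summit, a count of 1 in lists this short does not set them apart. Of 29 genes of lipid use, 1 had a thresholded summit in the window, the acyl-CoA dehydrogenase gene acdh-2 (rank 10). It lay 3705 bp downstream of the start, past the gene, and 89 bp from that of the non-coding C17C3.23. The lysosomal lipase gene lipl-3, known to be induced by fasting, came next at rank 647, 656 bp upstream, with the start of R11G11.16 nearer, at 266 bp. The peroxisomal acyl-CoA oxidase gene acox-1.1 had rank 713. Of 23 regulators, 1 had a thresholded summit, the Mediator subunit gene mdt-15, at rank 96, 4291 bp into the gene and 4016 bp from the start of R12B2.13. The AMP-activated kinase gene aak-2 had rank 593 and the Rag GTPase gene raga-1 rank 864, with the starts of mec-4 and samp-1 nearer to those summits. In 3 of these 4 cases outside the 5 genes (idh-1, cyc-2.1 and acdh-2) another gene start was within 210 bp of the summit.

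**Figure D4:**
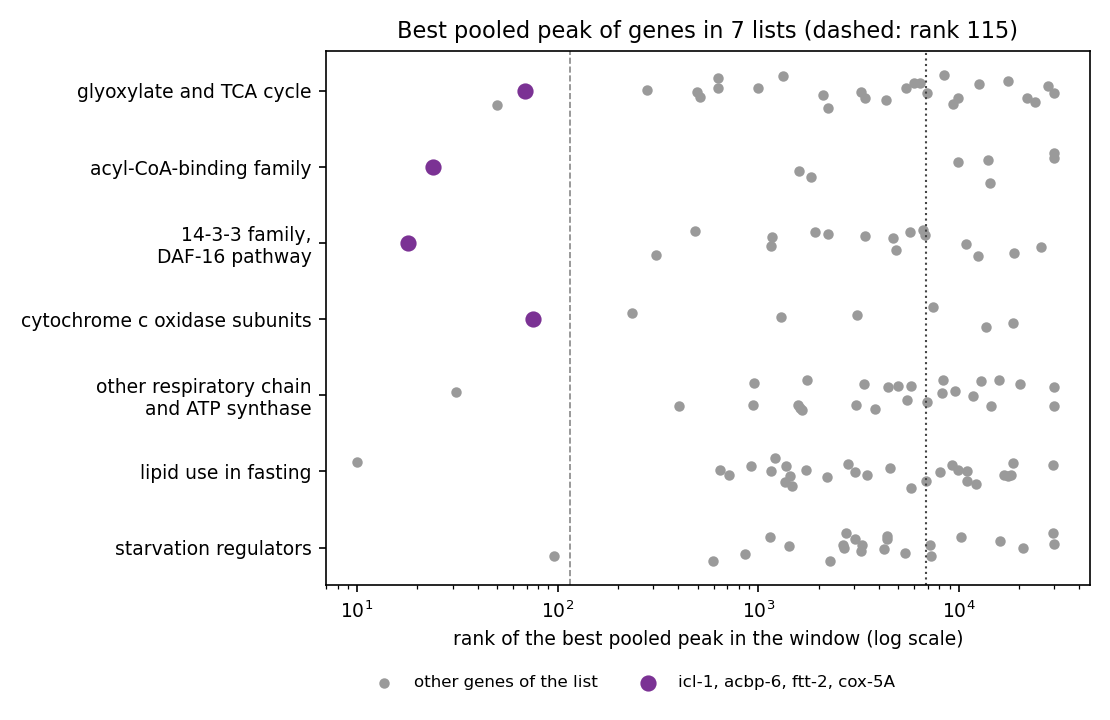
Rank of the best pooled peak in the window (log axis) for genes of 7 lists, one row per list, with icl-1, acbp-6, ftt-2 and cox-5A in purple and the other genes in gray. Genes with no pooled peak in the window are drawn at the right end, just past 30000. The dashed line marks the last rank of the thresholded list and the dotted line the median of protein-coding genes, 6858. Other gray points left of the dashed line are idh-1, cyc-2.1, acdh-2 and mdt-15.

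For each peak the most alike thresholded peaks were taken by distance of log10 rank over 3 lists (pooled, replicate 1 and replicate 2). Each is named by the nearest gene start, which need not be close. For the stronger tts-1 peak these were the peaks of rank 17 (cyn-10, 127 bp away) and 16 (T28H10.2, 2780 bp). For its second peak they were ranks 85 (the pseudogene WBGene00008013, 403 bp) and 72 (the non-coding T12D8.11, 808 bp). The icl-1 peak was most like ranks 61 (sls-2.1, 120 bp) and 83 (C05C10.3, 2097 bp). The ftt-2 peak was most like ranks 20 (K02F3.13, 1054 bp) and 25 (rpl-35, 451 bp), and the cox-5A peak most like ranks 68 (F53C11.4, 890 bp) and 82 (prx-2, 831 bp). For acbp-6 the stronger peak was closest to ranks 29 (Y65A5A.2, 3775 bp) and 25 (rpl-35, 451 bp), and the other to ranks 34 (Y73B6BL.29, 25 bp) and 31 (Y17G9B.5, 176 bp). Distances of log10 rank ran from 0.03 to 0.32, and none of the nearest peaks was at another of the 5 genes.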

How the data were processed

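Peak lists of HLH-17 ChIP-seq were taken as the authors deposited them, on ce11. Per the deposited notes, each replicate's relaxed peaks were called against the same control, pooled peaks came from both replicates, and the thresholded list was made by the irreproducible discovery rate. Which aligner and caller were run is not given in the sources used here. Signal, as deposited, has no stated scale and differs between lists, so it only ranks peaks within a list. The second deposited column, treated as a score, holds an estimated q as −log10 according to the file format. All thresholded peaks were in the pooled list and were its strongest by signal.

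Ranks, windows and motifs were computed with Python 3.11.15 and pandas 2.3.3 from Ensembl release 115 genes, second copies with BLAST 2.17.0, and sequence came from the RefSeq copy of WBcel235, within whose chromosomes all peaks ended. Functions were tested on made-up data. A rule named the 5 genes, genes starting within 2000 bp of their thresholded summits, list genes with a thresholded summit plus the next 2 per list, and the 2 peaks most alike. Other names were added with their values in view. Genes and lists were chosen with earlier results of these data known. Of 138 list genes, 137 matched a symbol. With 1 group and members chosen on signal, no test was made.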

Additional observations from a re-analysis of the deposited data

How the results depend on the processing

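The 5 genes each kept a thresholded summit with windows of 2000 or 10000 bp, with 5000 bp upstream only, or by overlap of intervals. The gene body was part of the window in each setting, also upstream only. The icl-1 peak and the second tts-1 peak, downstream of the start, therefore stayed. Upstream only, tts-1 kept 1 peak, that of rank 64 inside the gene, and lost its strongest, of rank 14, past the gene. With 2000 bp, acbp-6 kept 1 peak and lost that of rank 32. With the strongest peaks of a single replicate, as many as the thresholded list has, 4 genes had one: cox-5A dropped out without replicate 1 and icl-1 without replicate 2. In the upper 58 thresholded peaks 3 genes remained (tts-1, acbp-6 and ftt-2), as with a value of 0 or more in the q column (3). Over all genes the count of 584 became 290 with 2000 bp, 1029 with 10000 bp and 379 upstream only. Member peaks found in both replicates numbered 5 within 50 or 100 bp and 7 within 200 bp or by overlap, and those with an E-box 4, 5 and 7 with 50, 100 and 200 bp on either side of the summit. Ranked by the q column instead of signal, the strongest peaks of tts-1, acbp-6 and ftt-2 stayed the best of their windows, at 16, 21 and 12508. In the windows of icl-1 and cox-5A the best were at 1604 and 1154. Those were other peaks, of pooled ranks 28529 and 28737 by signal, and the thresholded peaks of both genes had lower values in this column. Best ranks by 1 replicate alone ran from 11 to 495. Unknown depth and only 2 replicates limit all of these values.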
